A study of Mus musculus with 2 samples.

Results

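The non-coding genes 4930500J02Rik, Gm11523 and Mir124-2hg, the last the host gene of a miR-124 hairpin, were followed in RNA recovered from mouse forebrain with BG4, an antibody that binds G-quadruplexes, and with normal rabbit IgG. They are 3 of the 170 genes of the deposited table, 7 of which are not annotated as protein-coding. The genes were chosen by name as long non-coding transcripts, though the table has 6 non-coding RNA genes and the others were not chosen. The choice was made with their values known, so the values are given as a description and no test was made. RNA held by His-tagged BG4 or by the control IgG on protein G columns, to which an anti-His antibody was also added, was purified and sequenced (RNA immunoprecipitation followed by sequencing, RIP-seq), with 1 library per antibody. Both libraries came from forebrain of Mus musculus, while the labels state no strain, sex, age or number of animals. Neither library has a replicate, and no difference below can be set against a spread between samples. More cells of a type cannot be told apart from more RNA per cell. Neither library holds RNA taken before recovery with an antibody. The amount of an RNA in the tissue and its recovery with BG4 therefore cannot be told apart either. The values were taken as FPKM (fragment counts divided by transcript length and library size). The number of reads behind them is unknown, and no counting interval could be given.

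A G-quadruplex is a stack of planar guanine tetrads, formed by nearby runs of guanines in RNA or DNA. Long non-coding RNAs are transcribed and often spliced like mRNAs but are not translated into a known protein. Mir124-2hg is the host gene of one of the genomic copies of miR-124, a microRNA that is highly enriched in neurons and represses many transcripts of non-neuronal cells. A microRNA is cut as a hairpin from its primary transcript, and the rest of the host RNA can persist as a spliced non-coding RNA. 4930500J02Rik is named Platr14 in the RefSeq and GENCODE annotations, one of a group of transcripts called pluripotency-associated in mouse embryonic stem cells. Gm11523 carries only a gene-model name in both annotations.

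The guanine-run sequences of the 3 genes are shown first, because BG4 is directed at structures that such sequences can form. A putative motif was defined as 4 runs of at least 3 guanines separated by loops of 1 to 7 bases of any kind, and a looser one needed only 2 guanines per run. The only match to the stricter definition on the transcribed strand lay in Mir124-2hg. It overlapped one of the looser matches, and matches to 1 definition were counted without overlap. The others shown are looser matches that lie in the most transcripts of their gene or, for Mir124-2hg, hold its longest guanine run. A looser match of Mir124-2hg that lies in 2 of its transcripts is joined by splicing and is not shown. The second match shown for 4930500J02Rik lies in 1 transcript. The capitals mark unbroken stretches of at least as many guanines as a run needs. Loop bases can be guanines too, so a long stretch can hold more than 1 run and the loop between. A match can therefore show fewer than 4 stretches in capitals.
Mir124-2hg, stricter definition, in Mir124-2hg-202: GGGaGGGGttagatGGGtaaGGG
Mir124-2hg, looser definition, in Mir124-2hg-201: GGGGGGGGGGGtgagatGG
4930500J02Rik, looser definition, in Platr14-204 and Platr14-205: GGGGGcGGctcatctGGG
4930500J02Rik, looser definition, in Platr14-202: GGGaacctaGGGGGctGGGtGG
Gm11523, looser definition, in all 3 transcripts: GGaaGGatgccaGGGGtGGG

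In mm10, the stricter match of Mir124-2hg lay at chr3:17794265-17794287 on the plus strand, and the looser one at chr3:17797755-17797773. Those of 4930500J02Rik lay at chr2:104559379-104559396 and chr2:104559501-104559522 on the plus strand. That of Gm11523 lay at chr11:96863482-96863501 on the minus strand. The sequences were read from the GENCODE M21 transcripts, and each is within 1 exon.

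4930500J02Rik had 350 FPKM in the BG4 library and 1.99 FPKM in the IgG library. Its BG4 value was the second of the table and 44.4 times the median of all 170 genes, and its IgG value was the seventh and 13.9 times the median. The log2 ratio of BG4 to IgG, with a pseudocount of 1 FPKM added to both values, was 6.87, which ranked 5 of 170. Without a pseudocount the fold was 176. The RNA was thus near the top of the list in both libraries, and the gap between them was among the wide ones on the first scale.

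Gm11523 had 90.0 FPKM in BG4 and 3.26 FPKM in IgG. Its IgG value was the third of the table, 22.8 times the median, and its BG4 value the ninth, 11.4 times the median. The log2 ratio was 4.42, rank 18 of 170, and the fold without a pseudocount was 27.6. That fold was below the median of the table, 54.0 over the 169 genes for which it could be formed. Gm11523 was therefore high in both libraries, and on the scale without a pseudocount its IgG value took it into the lower part of the list.

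Mir124-2hg had 5.25 FPKM in BG4 and 0.0531 FPKM in IgG. Both values were below the medians of the table, 7.88 and 0.143 FPKM, and ranked 129 and 143 of 170. The log2 ratio with the pseudocount was 2.57, rank 112 and under the median of 2.87, whereas the fold without a pseudocount was 98.9, rank 55 of 169. The host of miR-124 was thus the lowest of the 3 genes in both libraries, yet its fold lay between those of the other two.

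**Figure D1:**
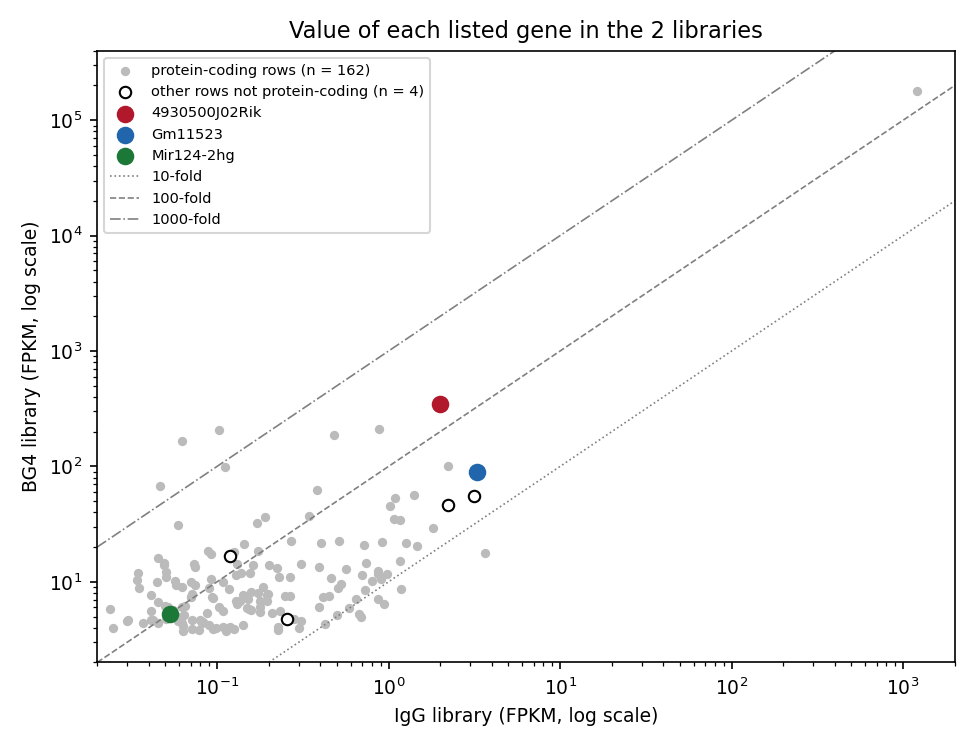
Value of each listed gene in the IgG library (x axis, FPKM, log scale) and the BG4 library (y axis, FPKM, log scale), with lines of equal fold, grey points for protein-coding genes and open points for the 4 other genes that are not protein-coding. Timm10b, whose IgG value was under 0.001 FPKM, is not drawn. 4930500J02Rik lies above the line of 100-fold at 350 FPKM in BG4, Gm11523 below it at 90.0 FPKM, and Mir124-2hg just under it at 5.25 FPKM.

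The order of the 3 genes depended on the scale. With the pseudocount of 1 FPKM it was 4930500J02Rik, Gm11523, Mir124-2hg, with ranks 5, 18 and 112. With a pseudocount of 0.1 FPKM the ranks were 8, 103 and 73, and with none they were 27, 129 and 55. After each library was divided by its own median over the table, with 1 added to the quotients, Gm11523 had a log2 ratio of -0.94, 4930500J02Rik 1.61 and Mir124-2hg 0.28. On that scale Gm11523 was relatively more prominent in IgG than in BG4. 4930500J02Rik kept the highest ratio of the 3 on each of the 4 scales.

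**Figure D2:**
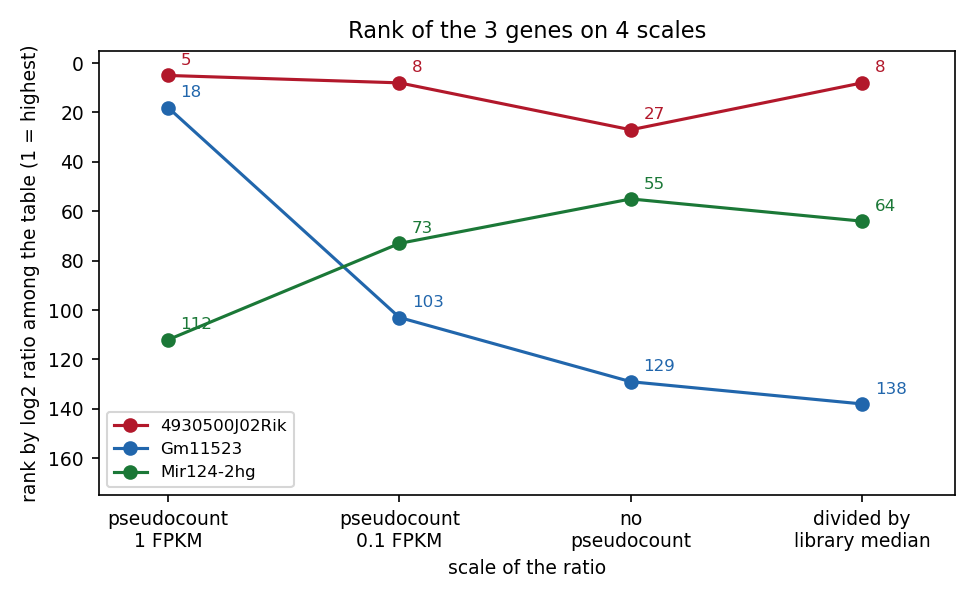
Rank of each gene by its log2 ratio of BG4 to IgG (y axis, 1 is the highest, 170 genes or 169 without a pseudocount) on 4 scales (x axis), where the lines only join the points of a gene. Gm11523 goes from rank 18 to rank 138, Mir124-2hg from 112 to 55 and 64, and 4930500J02Rik stays between 5 and 27.

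All 3 genes were above a 2-fold ratio with the pseudocount of 1 FPKM, as were 100% of the genes of the table, which lists only genes higher in BG4. At least 100-fold without a pseudocount was reached by 1 of the 3, 4930500J02Rik, against 32% of the 169 genes. In the authors' deposited table, q was under 0.05 for 1 of the 3, again 4930500J02Rik, against 8.24% of all genes. In the authors' deposited table, p and q were 0.00025 and 0.0179 for 4930500J02Rik, 0.0059 and 0.115 for Gm11523, and 0.0315 and 0.275 for Mir124-2hg. Those values compare the 2 libraries and not the antibodies. From the lowest p, 4930500J02Rik ranked 5 in a tie, Gm11523 48 and Mir124-2hg 131 of 170, within a list that is itself a selection. The genes were picked from this table, so the counts describe them and give no support for a difference from the other genes. The median log2 ratio with the pseudocount of 1 FPKM was 4.42 over the 3 genes, 3.93 over all 6 non-coding RNA genes and 2.87 over the table. The gap between the 3 genes and the table was narrower on the other scales. Medians were 5.13 and 4.95 for a pseudocount of 0.1 FPKM, and 6.63 and 5.76 for none. They were 0.28 and -0.01 after division by library medians.

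Among the listed genes, the profile nearest to that of Mir124-2hg over the 2 libraries was that of Bcorl1, a corepressor related to BCOR, with 5.18 FPKM in BG4 and 0.0527 in IgG. The next was Topbp1, a protein of DNA replication and damage signalling, with 5.68 and 0.0556 FPKM. Their distances from Mir124-2hg, taken on log2 values without a pseudocount, were 0.022 and 0.13. Gm11523 was nearest to Itsn1, a scaffold of endocytosis at synapses (100.5 and 2.21 FPKM, distance 0.58), and then to Gm14820, another non-coding gene (55.7 and 3.14 FPKM, distance 0.69). The closest gene to 4930500J02Rik was Kcnn4, a calcium-activated potassium channel (210.0 and 0.882 FPKM), at a larger distance of 1.39, followed by Itsn1 at 1.81. Likeness over 2 libraries says only that the values are close.

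The 3 genes differ in structure. The deposited locus of 4930500J02Rik (ENSMUSG00000086454.3), chr2:104559163-104571429 on the plus strand, equals the annotated gene at both ends and holds 6 annotated transcripts of 334 to 770 bases with 2 to 4 exons. Gm11523 (ENSMUSG00000087117.4) lies at chr11:96862997-96873954 on the minus strand, with 3 transcripts of 508 to 802 bases. Mir124-2hg (ENSMUSG00000100252.2) lies at chr3:17789921-17808970 on the plus strand, with 7 transcripts of 173 to 3844 bases. For both of these the deposited locus also equals the annotated gene. Exons cover 12.9% of the locus of 4930500J02Rik, 9.99% of that of Gm11523 and 31.6% of that of Mir124-2hg, and the rest is intron.

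The longest transcripts of 4930500J02Rik and Gm11523 are among the shortest of the table, 168th and 167th of 170 from the longest, and that of Mir124-2hg is 82nd. FPKM divides by length, and the sources used here do not say which transcripts the authors' values stand for. If all fragments of a gene came from 1 of its transcripts, the BG4 value times the length in kilobases would be 117 to 269 for 4930500J02Rik, depending on the transcript, in fragments scaled to library size alone. It would be 45.7 to 72.2 for Gm11523 and 0.909 to 20.2 for Mir124-2hg. The same product in IgG would be 1.65 to 2.61 for Gm11523, 0.665 to 1.53 for 4930500J02Rik and 0.00919 to 0.204 for Mir124-2hg. These ranges do not overlap within a library, so with any single annotated transcript the order of the genes was that of their FPKM values.

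The hairpin gene Mir124a-2 lies inside Mir124-2hg at chr3:17795662-17795770, on the same strand and 5741 bases from the start of the host. It is intronic in 5 of the 7 host transcripts, which span it without an exon there. Mir124-2hg-202 ends before it, and the single exon of Mir124-2hg-201 begins within it and shares 27 of its 109 bases. The value of Mir124-2hg is uncertain in so far as fragments of the hairpin could be counted with that exon. The stricter guanine-run match in Mir124-2hg-202 lies upstream of the hairpin, with 1374 bases between them. A small nuclear RNA gene, Gm23441, lies on the opposite strand within the locus and shares no exon with the host. The table has no value for miR-124 itself, and the hairpin is not among its genes.

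**Figure D3:**
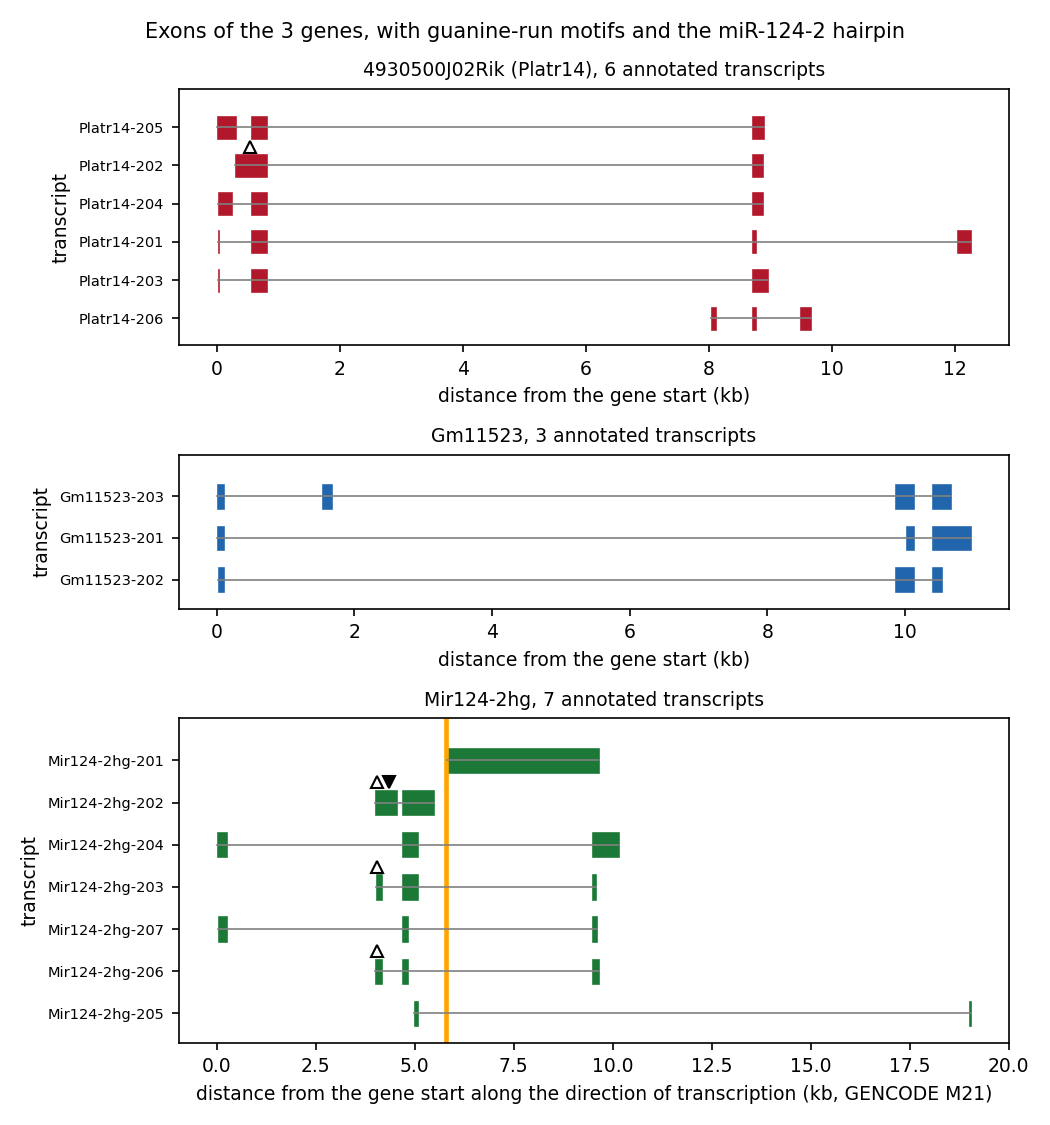
Annotated exons (boxes) and introns (lines) of each transcript of the 3 genes by distance from the gene start (x axis, kb), with the miR-124-2 hairpin as an orange band. A filled triangle marks the stricter guanine-run motif on the transcribed strand, in 1 transcript of Mir124-2hg, and open triangles mark such motifs on the opposite strand, in 1 transcript of 4930500J02Rik and 3 of Mir124-2hg.

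4930500J02Rik and Gm11523 share no exon base with another annotated gene. The nearest annotated gene to 4930500J02Rik is the pseudogene Gm13884, 1673 bases away on the same strand. The nearest protein-coding gene is Cstf3, a factor of mRNA 3' end cleavage, 19093 bases away. The pseudogene Gm11524 lies in an intron of Gm11523 on the opposite strand. Copz2, a coatomer subunit, ends 1793 bases from the end of Gm11523 and is on the opposite strand. Neither Cstf3 nor Copz2 was in the table. Of the transcripts of the 3 genes, only Platr14-206 of 4930500J02Rik held a stretch of 50 bases or more at 95% identity or more with transcripts of other genes, 28 of them, over 109 of its 334 bases. None of those 28 genes was in the table.

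In the longest transcript, the stricter motif was found in 0 of the 3 genes, against 32 of 170 genes of the table (18.8%). It was found in 7.11% of 10155 annotated long non-coding genes, and in 4.08% of the 4946 of them whose longest transcript has 500 to 1500 bases. That range holds the longest transcripts of 4930500J02Rik and Gm11523 but not that of Mir124-2hg, which has 3844 bases. Over all transcripts it was found in 1 of 7 transcripts of Mir124-2hg, the sequence shown above, and in none of the 6 of 4930500J02Rik or the 3 of Gm11523. The shares given cover 1 transcript per gene, and no share over all transcripts was computed. The looser motif was found in the longest transcript of each of the 3 genes, 1 time in 4930500J02Rik, 3 times in Gm11523 and 4 times in Mir124-2hg. It sets few genes of the table apart, since 98.2% of them hold it. The looser motif was found in 70.6% of the annotated long non-coding genes. Among those whose longest transcript has 500 to 1500 bases, 65.0% held it. A match describes the letters only, and a window without a match says nothing about what BG4 bound.

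On the opposite strand, stricter motifs were found in 1 transcript of 4930500J02Rik and in 3 of Mir124-2hg. They are shown because the sources used here do not state how the authors' counting handled strand, so RNA of either strand could have been counted. None lies in the longest transcript, and 29.4% of the longest transcripts of the table hold such a motif. That share is no match for counts over all transcripts, for which none was computed.
4930500J02Rik, opposite strand, in Platr14-202: GGGaggaacGGGGaGGGGGGtagaGGG
Mir124-2hg, opposite strand, in Mir124-2hg-202, Mir124-2hg-203 and Mir124-2hg-206: GGGcggtGGGGGcaGGGaGGGGG

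The first of these lies at chr2:104559687-104559713 and the second at chr3:17793968-17793990, both on the minus strand. The GC content of the longest transcripts was 43.6% for 4930500J02Rik, 58.9% for Gm11523 and 39.4% for Mir124-2hg, against a median of 51.1% in the table. Gm11523 had 22.4 runs of 3 or more guanines per kilobase, the seventh of 170, and 18 runs in all, but no 4 of them close enough for the stricter motif. 4930500J02Rik had 10.4 runs per kilobase and Mir124-2hg 7.80, both below the median of 13.0. The gene with the highest ratio of the 3 was thus not the one richest in guanine runs. Mir124-2hg has the longest single run, 11 guanines in Mir124-2hg-201, which is part of the looser match shown above.

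**Figure D4:**
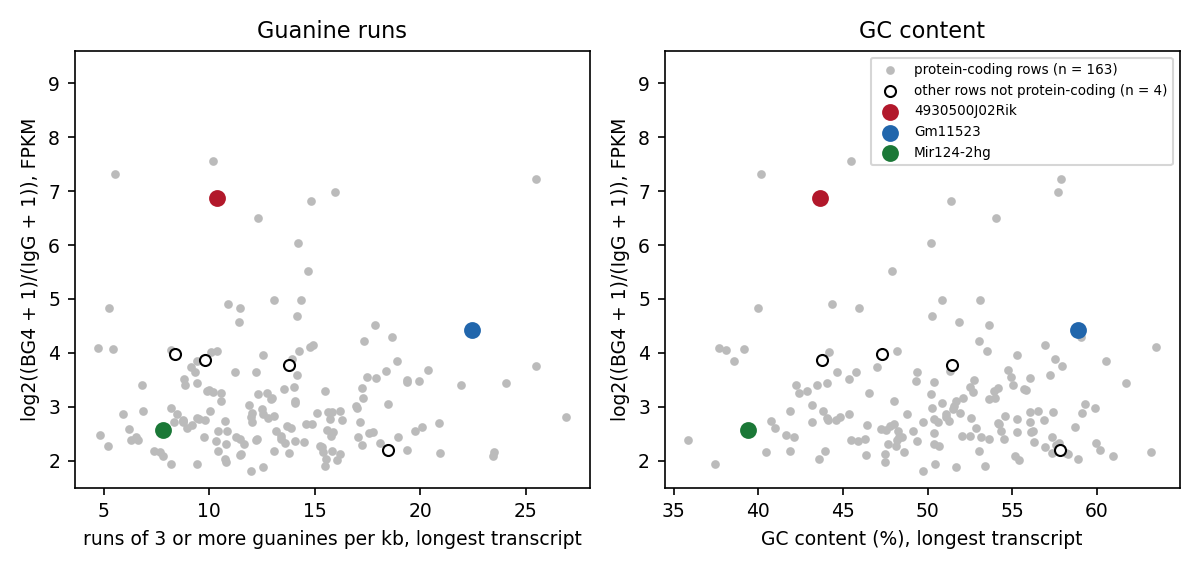
Log2 ratio of BG4 to IgG with a pseudocount of 1 FPKM (y axis) against runs of 3 or more guanines per kilobase (left) and GC content in percent (right) of the longest annotated transcript, for the 170 genes. Gm11523 stands far to the right in both panels (22.4 runs per kilobase, 58.9% GC), and 4930500J02Rik, at a log2 ratio of 6.87, and Mir124-2hg, at 2.57, stand left of the middle.

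The minimum free energy structure of each transcript was also computed with G-quadruplexes allowed. Of the 16 transcripts of the 3 genes, 1 had a quadruplex in that structure, Mir124-2hg-201. It was made of 2 tetrad layers at chr3:17797755-17797765, inside the run of 11 guanines, and lowered the free energy by 0.9 kcal/mol, from -1022.3 to -1023.2. The stricter match in Mir124-2hg-202 was not in a quadruplex in the computed structure of that transcript, which had the same energy of -470.0 kcal/mol with and without quadruplexes. Of the 95 genes of the table whose longest transcript has at most 4000 bases, 35 (36.8%) had a quadruplex in it, Mir124-2hg among them, and neither 4930500J02Rik nor Gm11523 did. These are computed structures of naked RNA and not measurements.

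Genes related to the miR-124 host were looked for on lists chosen with earlier results of these data known. Mir124-2hg was itself on the lists of 13 microRNA host genes and 19 long non-coding RNAs of brain, so its match was fixed. No other member of either list was in the table. The annotation names 11 and 17 of their members. The other miR-124 host on the list that the annotation names, Mir124a-1hg, was not in the table. The table held 0 of 18 proteins of microRNA processing and silencing and 0 of 22 known targets of miR-124. It held 0 of 13 G-quadruplex helicases and binding proteins and 0 of 9 structured small RNAs. Members were matched by name alone, and RNA of a gene can be counted under another whose deposited locus covers it. Ccdc107, highest in both libraries (179132 FPKM in BG4 and 1198 in IgG), shares exon bases with another gene. Its deposited locus differs from the annotated gene, and whether small RNAs were counted there was not tested. The table held 0 of 56 markers of forebrain cell types, neurons included, and of red blood cells. The tissue label could therefore not be checked against these markers. The table has 163 protein-coding genes, against 22028 in the annotation, so 0 for lists of this size is no result about their members. Absence from this table gives no level, since it lists a selection of genes higher in BG4.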

How the data were processed

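RIP-seq of mouse forebrain was analysed from 1 table, with 1 library each for BG4 and IgG, grouped by the antibody label. Per the submitters' processing notes the authors used Cufflinks and build mm10, whereas its version, the aligner, annotation, strand handling and library scaling are not stated there. The deposited values were taken to be FPKM from the Cuffdiff-like layout, because the header names no unit. The deposited log2 columns were not used. The deposited p-value and q-value columns set one library against the other. Per the labels' protocols, library preparation used a total RNA kit for Ion Torrent sequencing. Read depth is unknown, so no interval is given.

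Log2 ratios used a pseudocount of 1 FPKM, with at least 1 FPKM in 1 library. The pseudocount shrinks ratios where values are low. Folds without a pseudocount left out Timm10b (IgG under 0.001 FPKM). No p-value was computed. Identifiers were matched without version to GENCODE M21 (mm10), whose transcripts gave the sequences, and start positions were shifted by 1. Motif search and ratios were tested on simulated data. The simulated sequences had guanines only in the planted runs, so loops that hold guanines were not tested. Shared sequence came from blastn 2.17.0 and structures from RNAfold 2.7.2, with Python 3.11.15, pandas 2.3.3, numpy 2.4.6 and matplotlib 3.10.9. Named genes were the 3 genes, the other genes that are not protein-coding, the 2 nearest profiles of each, nearest or overlapping annotated genes and list members found in the table. Cstf3, Mir124a-1hg and Timm10b are named outside that rule, as a protein-coding neighbour, a list member not in the table and a gene left out. Ccdc107 is also named outside it, as the highest gene in both libraries and one left out in an alternative. The 3 genes and the 14 lists were chosen with earlier results of these data known.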

Additional observations from a re-analysis of the deposited data

How the results depend on the processing

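No paired analysis was possible because each antibody had 1 library. A ratio or rank is named here where it changed by over 1.5 times. The log2 ratio of Mir124-2hg, 2.57, became 5.13 with a pseudocount of 0.1 FPKM and 6.63 with none. These were also the medians of the 3 genes, against 4.42, while the median of the table went from 2.87 to 4.95 and 5.76. By construction a smaller pseudocount widens ratios whose IgG value is low. The ratios of the other 2 genes stayed within that limit on both scales. Ranks went from 5 to 8 and 27 for 4930500J02Rik, from 18 to 103 and 129 for Gm11523, and from 112 to 73 and 55 for Mir124-2hg. After division by library medians, which centres the table, the ratios were 1.61 for 4930500J02Rik, -0.94 for Gm11523 and 0.28 for Mir124-2hg, with ranks 8, 138 and 64. The median of the 3 was 0.28, against -0.01 in the table, and 1 of them stayed above 2-fold, as did 17 of the 170 genes, with 29 lower by 2-fold. With at least 10 FPKM required, Mir124-2hg was left out and the median of the other 2 was 5.65, against 3.77 over the 70 genes kept. It has no value either among genes without exon overlap. No rank moved that far without Ccdc107, genes with exon overlap or the filter. The count of motifs, 0 in each longest transcript, was 1, 3 and 4 with 2 or more guanines for 4930500J02Rik, Gm11523 and Mir124-2hg, and 0 in each with loops up to 12 bases. For Mir124-2hg it was 1 over all transcripts and 1 in the folded structure. The folded structure and the opposite strand were chosen after the data were seen. Motif searches over whole loci were not run, since no genome sequence was used here. Depth is unknown, so how far it limits the low IgG value of Mir124-2hg could not be computed.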

Other observations

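The other 4 genes of the table that are not protein-coding are 3 non-coding RNA genes and 1 pseudogene. Gm13936 had 16.6 FPKM in BG4 and 0.119 in IgG, a fold of 140 without a pseudocount and a log2 ratio of 3.98 with one of 1 FPKM. Gm26816 had 46.4 and 2.23 FPKM, a log2 ratio of 3.88, and Gm14820 had 55.7 and 3.14 FPKM, a log2 ratio of 3.78. H2-Bl, annotated as a polymorphic pseudogene of the major histocompatibility class I family, had 4.74 and 0.256 FPKM, a log2 ratio of 2.19.

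Of the 7 genes that are not protein-coding, 4 (57.1%) had at least 1 FPKM in IgG, among them Gm11523 and 4930500J02Rik, against 13 of 163 protein-coding genes (7.98%). Gm11523, Gm14820 and Gm26816 held ranks 3, 4 and 5 of the table by IgG value. This was noticed after the values were seen and was not tested. The median longest transcript of the 7 has 1138 bases, against 3809 bases in the protein-coding genes, and the part of length in their FPKM values was not tested.

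Values of Gm14820, Gm26816 and H2-Bl are uncertain. Exons of Gm14820 share 767 bases with Suv39h1, a histone methyltransferase, on the opposite strand, and those of Gm26816 share 156 bases with Cog4, a Golgi tethering subunit. The deposited locus of Gm26816 reaches beyond the annotated gene and covers or crosses the protein-coding genes Sf3b3 and Fuk on the same strand and Cog4 and St3gal2 on the opposite strand, and small nucleolar RNA genes. H2-Bl belongs to a multigene family.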
